A study of Mus musculus with 12 samples.

Results

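The genes described here are 38 of the 41457 genes in the deposited tables of mouse splenic regulatory T cells (Treg). They were taken by name from a list and comprise the 20 cytosolic aminoacyl-tRNA synthetases, 5 transcription factors of the ATF4 response (Atf4, Atf5, Cebpb, Cebpg and Ddit3), 8 enzymes that make asparagine, serine, glycine and one-carbon units, and 5 further stress-response targets (Chac1, Ddit4, Sesn2, Slc7a11 and Trib3). For 37 of them 1 row carried the name; Ddit3 was listed more than once and was taken by its gene identifier, ENSMUSG00000025408.

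Aminoacyl-tRNA synthetases join each amino acid to its tRNA and fall into 2 structural classes, class I and class II. Several of the cytosolic enzymes sit together in a multi-synthetase complex held by scaffold proteins. ATF4 is a transcription factor whose translation increases when the initiation factor eIF2 is phosphorylated, as happens when amino acids run short, and its targets include synthetases, amino acid transporters and the enzymes of asparagine and serine synthesis. In T cells, receptor engagement is known to raise demand for amino acids and one-carbon units, which feed protein and nucleotide synthesis.

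Both genotypes carried Cre recombinase in the Foxp3 locus and a Rosa26 RFP reporter, and Treg were sorted from the spleen as RFP+ CD4+ cells. CD18Foxp3 mice carried homozygous floxed CD18 (Itgb2, the beta2 integrin chain), from which Cre removes exon 3, and CD18wt littermates carried unmodified CD18, so that the deletion was limited to cells that had expressed Foxp3. Mice were matched for age and sex, and the age was not given in the sources used here. Sorted cells were kept overnight in 5 U/mL IL-2 alone (unstimulated) or together with 1 µg/mL anti-CD3 and 2 µg/mL anti-CD28 (stimulated), with 3 libraries in each of the 4 groups, labelled as biological replicates.

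The 12 libraries held 10665174 to 19005482 exon reads. Itgb2 itself was lower in CD18Foxp3 Treg, with 4441 to 4992 exon reads against 4796 to 9005 in unstimulated Treg (log2 fold change -0.85, SE 0.09, adjusted p = 0.00408 by edgeR's quasi-likelihood test, and adjusted p of 0.0163 to 0.0460 without any 1 library other than CD18wt replicate 3), and 2531 to 3423 against 3895 to 5761 in stimulated Treg (-0.94, SE 0.17, edgeR adjusted p = 0.216); reads outside exon 3 are still counted. The unstimulated value was -0.85 also with all 12 libraries in 1 fit, where it was not called (edgeR adjusted p = 0.0390). Summed Treg identity genes lay at 1624 to 2107 TPM (transcript levels scaled by length to the same sum in every library) in unstimulated and 2963 to 4459 TPM in stimulated libraries. Some markers of other cells also differed between cultures: summed B cell markers lay at 22.6 to 30.8 TPM in unstimulated and 8.79 to 19.9 TPM in stimulated libraries, and cytotoxic markers at 25.3 to 35.7 and 12.6 to 25.8 TPM. Myeloid markers overlapped between cultures, at 4.22 to 19.6 and 5.87 to 10.8 TPM. Plasma cell markers lay at 11.1 to 20.1 and 19.96 to 42.8 TPM, mostly through Prdm1 (8.61 to 16.7 and 17.8 to 39.1 TPM), which Treg also express, while Jchain was at 0.390 to 4.76 TPM in unstimulated and at most 0.722 TPM in stimulated libraries. Erythroid markers reached 58.1 TPM in 1 unstimulated CD18Foxp3 library and at most 4.04 TPM in stimulated ones. The stimulated genotypes did not overlap in summed Treg identity genes, at 2963 to 3794 TPM in CD18wt and 3877 to 4459 TPM in CD18Foxp3. T cell activation genes (1656 to 2034 and 2084 to 2404 TPM) and plasma cell markers (19.96 to 32.2 and 36.4 to 42.8 TPM) separated likewise. Erythroid markers went the other way (0.725 to 4.04 and 0.234 to 0.667 TPM), while B cell, cytotoxic and myeloid markers overlapped. All 7 Treg identity genes and all 4 plasma cell markers had reads in every group. Ncr1 of the 4 cytotoxic markers had none in any group, and Adgre1 and S100a8 (of 5 myeloid markers) had none in at least 1 group. In stimulated CD18wt Treg 2 of the 4 cytotoxic markers had none. In unstimulated CD18Foxp3 and in stimulated CD18wt Treg 1 of 5 B cell markers had none. Each stimulated group lacked reads for 2 of 5 erythroid markers. The part of these cells in the results was not tested. In bulk RNA a change in the share of cells that express a gene and a change of RNA per cell cannot be told apart.

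Libraries also differed within their groups. CD18wt unstimulated replicate 3 had the lowest depth and the lowest share of intron reads (3.32% of gene reads, against 3.66% to 5.99% elsewhere). CD18wt stimulated replicate 3 gave the highest level of the 6 stimulated libraries for 27 of 37 members (26.9% of all genes), and CD18Foxp3 stimulated replicate 1 the lowest for 19 of 37 members (31.8% of all genes). CD18wt unstimulated replicate 1 was the lowest of the 6 unstimulated libraries for 14 of 36 members (15.4% of all genes).

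ATF4 acts with C/EBP partners on composite DNA elements, and the promoters that hold such letters are shown here because the members are grouped by ATF4. The motif TGATGNAA was searched on both strands in RefSeq windows of build GRCm38.p6, from 250 bases before to 50 bases after each gene's start. A window was found for 30 of the 38 members. Of these 30 genes, 9 (30.0%) held the motif, against 1219 of 27025 genes (4.51%) in the whole table. Members were listed partly as known ATF4 targets, so this contrast is a description and no test. The stretches below run 5′ to 3′ along the gene's strand, with the motif or its reverse complement in capitals. Asns, which makes asparagine, comes first, followed by synthetases and then by stress-response members.
Asns, chr6:7693214-7693243, minus strand: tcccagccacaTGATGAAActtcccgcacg
Iars, chr13:49682126-49682155, plus strand: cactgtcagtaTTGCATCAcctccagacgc
Gars, chr6:55037960-55037989, plus strand: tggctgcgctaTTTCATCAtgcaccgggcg
Tars, chr15:11399655-11399684, minus strand: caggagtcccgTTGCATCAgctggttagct
Yars, chr4:129189895-129189924, plus strand: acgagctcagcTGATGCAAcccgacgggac
Aars, chr8:111033840-111033869, plus strand: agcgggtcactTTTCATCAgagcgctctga
Chac1, chr2:119351038-119351067, plus strand: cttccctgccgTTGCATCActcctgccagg
Trib3, chr2:152344028-152344057, minus strand: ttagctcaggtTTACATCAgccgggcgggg
Slc7a11, chr3:50443661-50443690, minus strand: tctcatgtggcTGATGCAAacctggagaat
Slc7a11, chr3:50443642-50443671, minus strand: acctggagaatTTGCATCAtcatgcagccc
The 5 matching synthetases were Aars, Gars, Iars, Tars and Yars. Cars, Lars, Mars, Rars, Vars, Wars, Hars and Nars had no window in the table. A match is a description of these letters and not evidence of binding.

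The first comparison asked how stimulation through CD3 and CD28 changed the members in CD18wt Treg. A gene was called when its fold change was at least 1.5 and its adjusted p at most 0.01 (edgeR). Of the 36 members with enough exon reads to be tested, 27 rose, 3 fell (Cebpb, Ddit3 and Ddit4) and 6 were not called (Qars, Vars, Dars, Sars, Cebpg and Trib3); of all 11930 genes tested 18.7% were called higher and 14.9% lower. The members' log2 fold changes ran from -1.70 to 3.97 with a median of 1.12, and the median over all genes was 0.02. Every stimulated library lay above every unstimulated one in TPM for 32 of the 36 members and below it for 2, beside 47.8% and 14.2% of all genes. In CD18Foxp3 Treg 26 of 36 members rose, 2 fell (Cebpb and Ddit3) and 8 were not called, with a median of 1.09, beside 20.9% of all 12019 genes called higher and 17.6% called lower. There the TPM of the groups did not overlap for 29 members that were higher and 3 that were lower (47.9% and 19.2% of all genes).

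**Figure D1:**
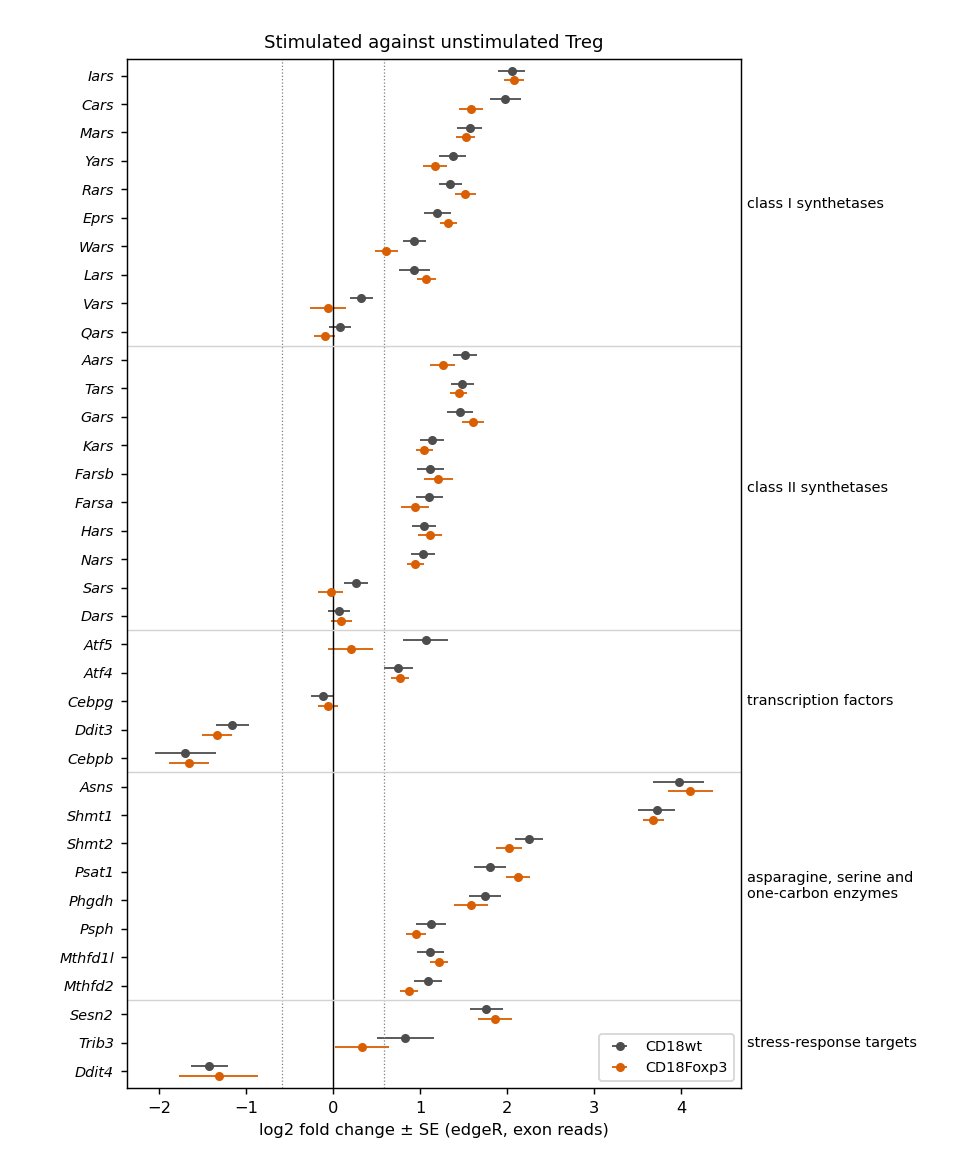
Log2 fold change of exon reads (stimulated against unstimulated, points with standard error) for the 36 tested members by role, in CD18wt (grey) and CD18Foxp3 (orange) Treg, with dotted lines at a 1.5-fold change. Asns and Shmt1 lie furthest to the right, at 3.97 and 3.71 in CD18wt Treg, and Cebpb, Ddit3 and Ddit4 lie to the left of the lower line in both genotypes.

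The asparagine, serine and one-carbon enzymes had the largest median change of any role. All 8 rose in both genotypes, with median log2 fold changes of 1.78 in CD18wt and 1.80 in CD18Foxp3 Treg. Over all genes tested, 18.7% were called higher in CD18wt and 20.9% in CD18Foxp3 Treg. Asns (chromosome 6, 7675169 to 7693254), asparagine synthetase, was among the lowest members without stimulation, at 2.13, 2.01 and 1.71 TPM in CD18wt and 1.74, 1.40 and 3.06 TPM in CD18Foxp3 Treg. After stimulation it stood at 31.6, 29.8 and 61.8 TPM and at 47.7, 41.4 and 47.8 TPM. Every stimulated library lay above every unstimulated one, and the log2 fold change was 3.97 (SE 0.29, edgeR adjusted p = 4.98e-07) in CD18wt and 4.10 (SE 0.26, edgeR adjusted p = 4.01e-06) in CD18Foxp3 Treg. CD18wt stimulated replicate 3 held about the level of both other CD18wt libraries combined, while the 3 CD18Foxp3 libraries lay close together.

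Shmt1 and Shmt2, the cytosolic and mitochondrial serine hydroxymethyltransferases that move a carbon from serine to folate, followed. Shmt1 (chromosome 11, 60788104 to 60811718) went from 4.67, 7.22 and 7.10 TPM to 89.9, 117 and 119.8 TPM in CD18wt Treg. CD18Foxp3 Treg went from 6.57, 6.79 and 6.17 TPM to 105, 109.5 and 108 TPM. These libraries were tight, and the log2 fold changes were 3.71 (SE 0.21, edgeR adjusted p = 1.38e-07) and 3.68 (SE 0.12, edgeR adjusted p = 3.16e-07). Shmt2 was the more abundant of both enzymes in every group, at 40.1, 53.0 and 43.1 TPM without and 251, 250.5 and 356 TPM with stimulation in CD18wt Treg. Its levels in CD18Foxp3 Treg were 43.5, 46.5 and 49.9 TPM without and 188, 273 and 274 TPM with stimulation. The groups did not overlap, and the log2 fold change was 2.25 (SE 0.16, edgeR adjusted p = 3.94e-07) and 2.02 (SE 0.15, edgeR adjusted p = 8.05e-06).

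The serine synthesis enzymes rose with them. Psat1, phosphoserine aminotransferase, was at 34.9, 34.8 and 42.5 TPM in unstimulated and 134, 182 and 201 TPM in stimulated CD18wt Treg. CD18Foxp3 Treg held 29.1, 32.7 and 38.8 TPM and then 188, 169 and 204 TPM, and the log2 fold changes were 1.80 (SE 0.18, edgeR adjusted p = 5.41e-06) and 2.12 (SE 0.14, edgeR adjusted p = 4.43e-06). Phgdh, the dehydrogenase that opens the pathway, rose by 1.75 and 1.59 on the log2 scale in CD18wt and CD18Foxp3 Treg, and Psph, the phosphatase that ends it, by 1.12 and 0.95. Mthfd2 and Mthfd1l, mitochondrial enzymes that process folate-bound carbon, rose by 1.09 and 1.12 in CD18wt and by 0.87 and 1.22 in CD18Foxp3 Treg. Summed over the 8 enzymes, unstimulated libraries held 262 to 320 TPM and stimulated libraries 1066 to 1660 TPM.

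**Figure D2:**
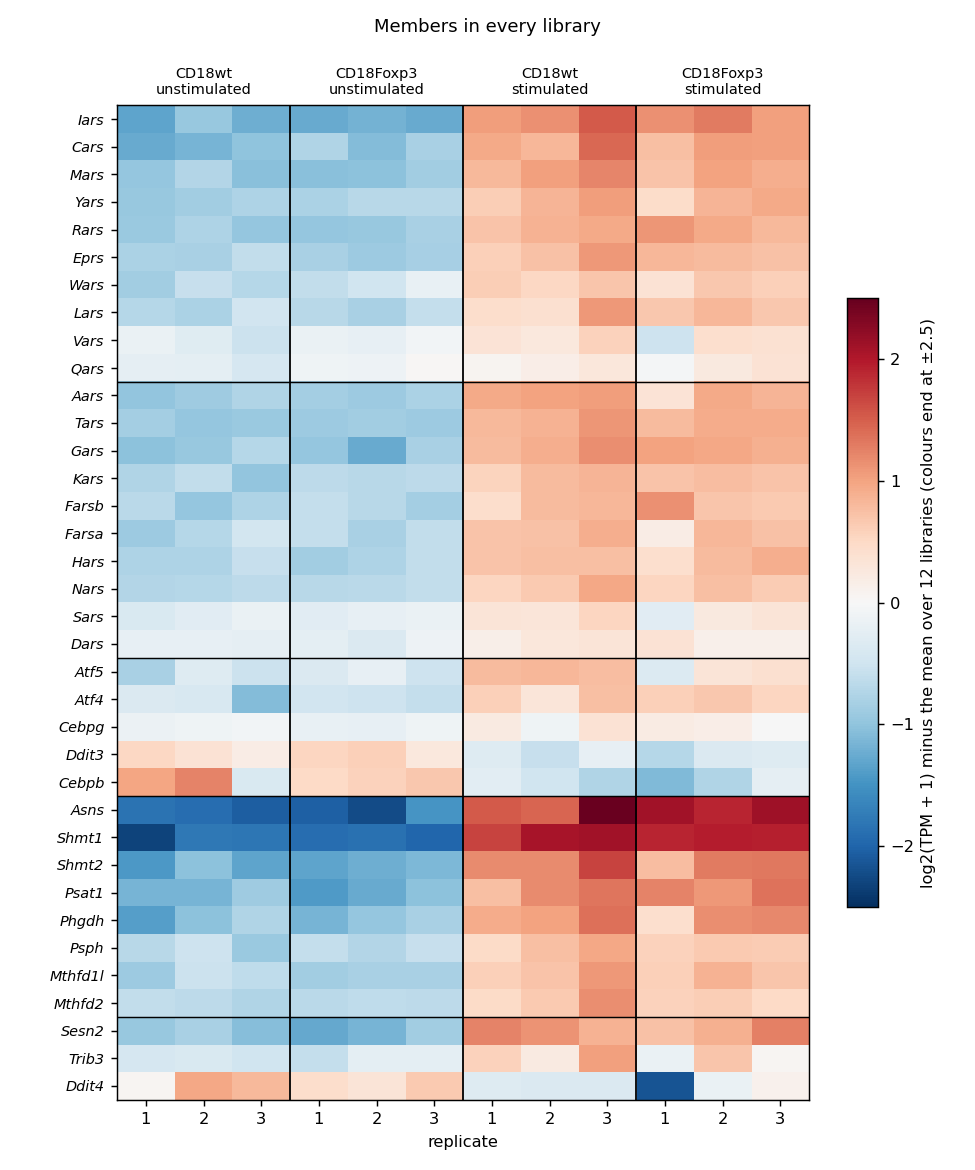
Heat map of the 36 tested members (by role, top to bottom) in each of the 12 libraries, where colour gives log2(TPM + 1) minus the member's mean over all libraries, red above and blue below it. Asns and Shmt1 span the widest range between cultures, Cebpb is low in CD18wt unstimulated replicate 3, and Ddit4 is lowest in CD18Foxp3 stimulated replicate 1 (53.7 TPM).

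Of the 20 cytosolic synthetases, 16 rose and none fell in either genotype, with median log2 fold changes of 1.13 in CD18wt and 1.14 in CD18Foxp3 Treg; the other 4 were Qars, Vars, Dars and Sars. Their summed level was 1125 to 1254 TPM in unstimulated and 2691 to 3378 TPM in stimulated libraries. Both classes contributed, counted by gene, with Eprs placed in class I and Farsa and Farsb counted separately. In class I 8 of 10 genes rose (median 1.27 in CD18wt and 1.25 in CD18Foxp3 Treg). In class II 8 of 10 genes rose (1.11 and 1.08). In the multi-synthetase complex 6 of 8 enzymes rose in each genotype, all but Qars and Dars. Beside these counts, 18.7% of all genes were called higher and 14.9% lower in CD18wt Treg, and 20.9% and 17.6% in CD18Foxp3 Treg.

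Among class I enzymes the largest changes were those of Iars, Cars and Mars, which charge tRNA with isoleucine, cysteine and methionine. Iars (chromosome 13, 49682100 to 49734267) was at 23.3, 30.7 and 25.1 TPM without and 124, 134 and 176 TPM with stimulation in CD18wt Treg. CD18Foxp3 Treg held 24.3, 25.7 and 24.5 TPM without and 134, 149 and 123 TPM with stimulation. The groups were far apart in both genotypes, with log2 fold changes of 2.05 (SE 0.16, edgeR adjusted p = 6.39e-07) and 2.08 (SE 0.11, edgeR adjusted p = 2.25e-06). Cars was the lowest of these 3, at 6.08, 6.58 and 7.41 TPM and then 31.5, 29.0 and 44.7 TPM in CD18wt Treg. Levels in CD18Foxp3 Treg were 8.96, 6.98 and 8.60 TPM and then 27.6, 33.9 and 33.5 TPM. Its log2 fold changes were 1.98 (SE 0.18, edgeR adjusted p = 1.90e-06) and 1.58 (SE 0.14, edgeR adjusted p = 1.76e-05). Mars was at 40.3, 47.7 and 38.1 TPM without and 142, 163 and 187 TPM with stimulation in CD18wt Treg, and at 38.03, 38.7 and 43.1 TPM and 132, 161 and 151 TPM in CD18Foxp3 Treg. It rose by 1.57 (SE 0.14) and 1.53 (SE 0.11) on the log2 scale, and its last 68 bases overlap the end of Ddit3 on the opposite strand, where reads of either gene cannot be told apart.

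Aars, Tars and Gars, the alanine, threonine and glycine enzymes, led class II. Aars stood at 22.0, 23.7 and 26.1 TPM in unstimulated and 87.1, 91.1 and 93.5 TPM in stimulated CD18wt Treg. The CD18Foxp3 libraries stood at 24.2, 23.2 and 25.5 TPM and at 57.0, 86.8 and 81.4 TPM, with the lowest stimulated level in replicate 1. Its log2 fold changes were 1.52 (SE 0.14, edgeR adjusted p = 2.34e-06) and 1.26 (SE 0.15, edgeR adjusted p = 9.98e-05), and 83.9% of its reads were placed uniquely. Tars was nearly level among unstimulated libraries, at 29.1, 27.0 and 27.6 TPM in CD18wt and 28.0, 28.9 and 27.95 TPM in CD18Foxp3 Treg. With stimulation it reached 93.9, 98.6 and 117 TPM and 92.5, 102 and 102 TPM, a log2 fold change of 1.48 (SE 0.13) and 1.44 (SE 0.10). Gars (chromosome 6, 55038007 to 55079500) was the most abundant of the 3, at 69.6, 74.4 and 87.0 TPM and then 249, 270 and 321 TPM in CD18wt Treg. CD18Foxp3 Treg gave 72.4, 59.6 and 81.7 TPM and then 289, 280 and 267 TPM, and the log2 fold changes were 1.46 (SE 0.15) and 1.61 (SE 0.13).

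In CD18wt Treg the other called synthetases rose less than these 6. In CD18wt Treg their log2 fold changes ran from 0.93 (Lars, leucine) and 0.94 (Wars, tryptophan) to 1.37 (Yars, tyrosine), and in CD18Foxp3 Treg from 0.61 (Wars) to 1.52 (Rars, arginine). The Wars call in CD18Foxp3 Treg was lost without unstimulated replicate 1 or 2 or stimulated replicate 2 or 3 (log2 fold change 0.52 to 0.58). The 4 that were not called had smaller values: Qars (glutamine) had log2 fold changes of 0.08 and -0.10, Dars (aspartate) 0.07 and 0.10, Sars (serine) 0.27 and -0.03, and Vars (valine) 0.33 and -0.06. On the TPM scale, where the median of all genes shifts upward by 0.33 in CD18wt and 0.30 in CD18Foxp3 Treg, the CD18Foxp3 values of Qars, Sars and Vars were above 0. Set beside the promoter letters above, the 5 synthetases with a match all rose, by 1.37 to 2.05 in CD18wt and 1.17 to 2.08 in CD18Foxp3 Treg. Of the 7 with a window and no match, 4 rose in each genotype, and their log2 fold changes ran from 0.07 to 1.20 and from -0.10 to 1.33. The 8 without a window included 7 that rose, among them Cars and Mars. Of all genes tested, 18.7% were called higher in CD18wt and 20.9% in CD18Foxp3 Treg. Among the 18 other members with a window, 4 held a match. Of those, Asns rose in both genotypes, Trib3 was not called, and Chac1 and Slc7a11 had too few exon reads for these fits. Without a match, Atf4, Sesn2, Phgdh, Psat1, Psph, Shmt1, Shmt2, Mthfd2 and Mthfd1l rose and Cebpb and Ddit3 fell in both genotypes. Also without a match, Atf5 rose and Ddit4 fell by the calls in CD18wt Treg alone, and Cebpg was called in neither genotype. Whether a match bears on the change was not tested.

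The 5 transcription factors moved in different directions. Atf4 (chromosome 15, 80255184 to 80257541) was at 168, 164 and 102 TPM without and 330.2, 266 and 366 TPM with stimulation in CD18wt Treg. Among CD18Foxp3 libraries it was at 155, 152 and 142 TPM and at 328, 346 and 315 TPM. The groups did not overlap, and the log2 fold changes were 0.75 (SE 0.16, edgeR adjusted p = 0.00195) and 0.77 (SE 0.10, edgeR adjusted p = 0.000221). Without CD18wt unstimulated replicate 3, the lowest library, the CD18wt value was 0.58 (edgeR adjusted p = 0.00488), which is under the fold threshold. These are RNA levels, while ATF4 is known to be regulated largely in translation.

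Ddit3 and Cebpb, which encode CHOP and C/EBPbeta, both known as induced in stress responses, fell in both genotypes. Ddit3 (chromosome 10, 127290774 to 127296288) was at 38.8, 34.6 and 30.5 TPM in unstimulated and 21.2, 17.5 and 23.0 TPM in stimulated CD18wt Treg. CD18Foxp3 Treg held 38.9, 40.9 and 32.4 TPM and then 15.9, 20.6 and 21.1 TPM. The log2 fold change was -1.16 (SE 0.19, edgeR adjusted p = 0.000219) in CD18wt and -1.33 (SE 0.18, edgeR adjusted p = 0.000198) in CD18Foxp3 Treg. Cebpb (chromosome 2, 167688915 to 167690418) varied more, at 47.6, 57.2 and 17.8 TPM without and 19.5, 16.4 and 13.5 TPM with stimulation in CD18wt Treg, where the groups overlapped through replicate 3. CD18Foxp3 Treg went from 33.6, 35.4 and 38.3 TPM to 10.4, 13.6 and 19.99 TPM. Its log2 fold changes were -1.70 (SE 0.35, edgeR adjusted p = 0.0022) and -1.66 (SE 0.23, edgeR adjusted p = 0.000282), and without CD18wt unstimulated replicate 3 the CD18wt value was -2.03 (edgeR adjusted p = 1.96e-05). The CD18wt call was lost without unstimulated replicate 1 (edgeR adjusted p = 0.0102) and without stimulated replicate 1, 2 or 3 (edgeR adjusted p = 0.0110, 0.0133 and 0.0150), and by limma on log2(TPM + 1) the value was -1.12 (limma adjusted p = 0.0497).

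Atf5, a close relative of Atf4, rose in CD18wt Treg from 5.62, 8.19 and 6.92 TPM to 18.9, 19.5 and 18.6 TPM (log2 fold change 1.06, SE 0.26, edgeR adjusted p = 0.0042). In CD18Foxp3 Treg it was at 7.95, 9.05 and 7.02 TPM and then at 8.16, 13.5 and 14.2 TPM, with overlapping groups and a log2 fold change of 0.20 (SE 0.25, edgeR adjusted p = 0.52). The CD18wt call was lost without unstimulated replicate 1 (edgeR adjusted p = 0.0237) and without stimulated replicate 1 or 2 (edgeR adjusted p = 0.0119 and 0.0221). Cebpg, a partner of ATF4, had log2 fold changes of -0.12 and -0.06 (edgeR adjusted p = 0.492 and 0.672).

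The stress-response targets were split as well. Sesn2, a leucine-binding inhibitor of mTORC1 signalling, rose from 7.62, 8.41 and 6.94 TPM to 38.2, 35.0 and 29.4 TPM in CD18wt Treg. The rise in CD18Foxp3 Treg was from 5.81, 6.39 and 8.05 TPM to 26.6, 29.5 and 38.4 TPM. No stimulated library overlapped an unstimulated one, and the log2 fold changes were 1.76 (SE 0.18, edgeR adjusted p = 6.74e-06) and 1.86 (SE 0.19, edgeR adjusted p = 4.63e-05). Ddit4, another inhibitor of mTORC1, was the highest of all members without stimulation, at 253, 479.9 and 428 TPM in CD18wt and 330.1, 305 and 387 TPM in CD18Foxp3 Treg. With stimulation it was at 196, 188 and 191 TPM and at 53.7, 217 and 263 TPM. It fell in CD18wt Treg (log2 fold change -1.42, SE 0.21, edgeR adjusted p = 0.000206; 0.0305 with all 12 libraries in 1 edgeR fit) and was not called in CD18Foxp3 Treg (-1.31, SE 0.45, edgeR adjusted p = 0.0353). Without CD18Foxp3 stimulated replicate 1, the library at 53.7 TPM, the latter value was -0.90 with an edgeR adjusted p of 9.61e-05. Trib3, a pseudokinase, was not called (0.83, edgeR adjusted p = 0.0502, and 0.34, edgeR adjusted p = 0.382).

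2 members had too few exon reads for the stimulation fits. Chac1, which degrades glutathione, had 1, 0 and 0 exon reads in unstimulated and 7, 7 and 34 in stimulated CD18wt Treg, a depth-adjusted ratio of 48.5 with an exact 95% interval of 8.30 to 1956. In CD18Foxp3 Treg its reads went from 2, 0 and 0 to 8, 15 and 10, a ratio of 16.3 (4.16 to 140). Most CD18wt reads came from replicate 3, and these intervals cover counting error only. Slc7a11, the cystine transporter (chromosome 3, 49892526 to 50443614), had 6, 4 and 1 exon reads without and 2, 9 and 6 with stimulation in CD18wt Treg (ratio 1.56, 0.690 to 3.69). In CD18Foxp3 Treg it had 5, 2 and 1 and then 7, 4 and 6 (ratio 2.10, 0.858 to 5.61), so no difference was detectable in exon reads at this depth.

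**Figure D3:**
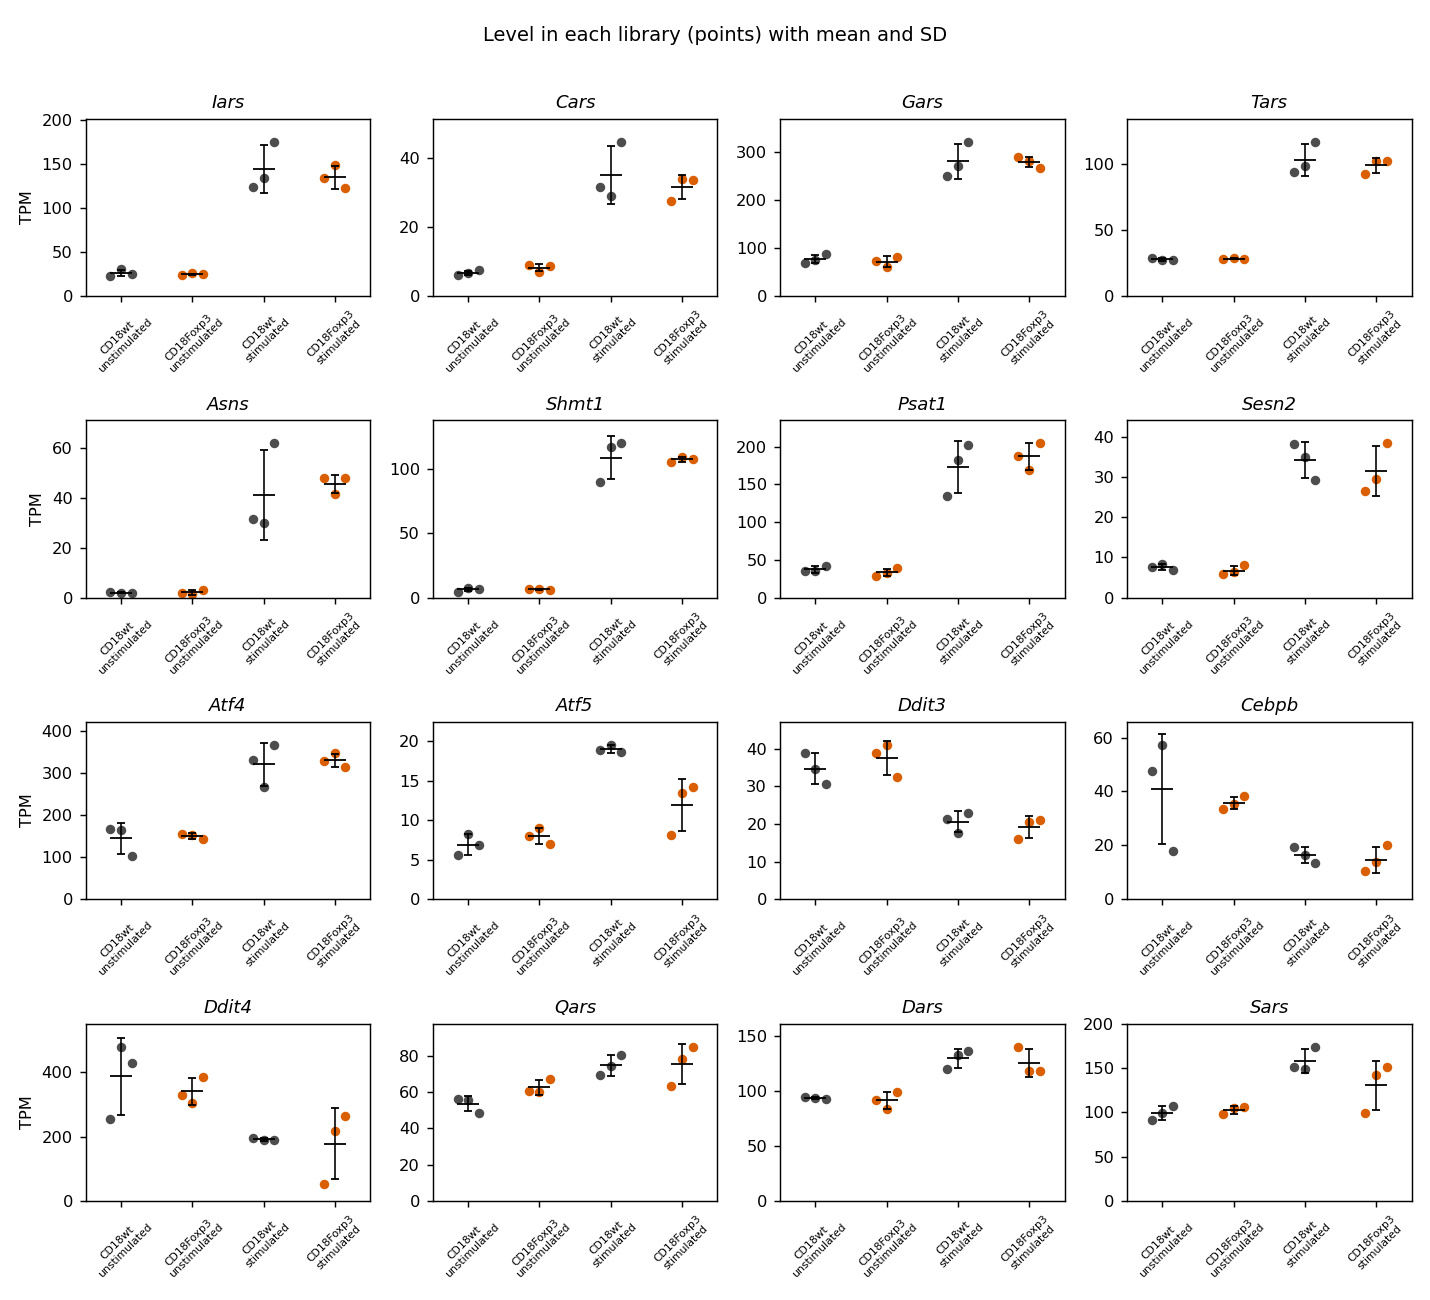
Level in TPM (linear axes from 0) of 16 members in each library (points), with mean and SD over 3 libraries per group, CD18wt in grey and CD18Foxp3 in orange. Asns lies between 1.40 and 3.06 TPM in all unstimulated and between 29.8 and 61.8 TPM in all stimulated libraries, Ddit3 is lower with stimulation, and Atf5 reaches 18.6 to 19.5 TPM in stimulated CD18wt and 8.16 to 14.2 TPM in stimulated CD18Foxp3 Treg.

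The order of levels changed with these shifts. TPM are scaled by length and can be set beside each other within a library. In unstimulated Treg the highest mean levels were those of Ddit4 (387 TPM in CD18wt and 341 TPM in CD18Foxp3), Atf4 (145 and 150 TPM) and Nars, which charges tRNA with asparagine (139 and 143 TPM); Atf4 and Nars did not differ beyond their spread. In stimulated Treg they were Phgdh (460 and 416 TPM), Nars (377 and 354.5 TPM) and Atf4 (321 and 329.7 TPM). This order of means did not hold in every library. In CD18Foxp3 stimulated replicate 1 Phgdh (284 TPM) lay below Nars (329.8 TPM) and Atf4 (328 TPM), and the levels of Nars and Atf4 overlapped in both stimulated groups.

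The response was compared between genotypes side by side, since both fits used separate libraries. Of the members, 26 rose in both genotypes, 2 fell in both, 6 were called in neither and 2 (Atf5 and Ddit4) were called in CD18wt Treg alone, a difference that the interaction below tests. Across the 36 members, which are not independent replicates, the log2 fold changes of both genotypes had a Pearson r of 0.98 and a Spearman rho of 0.96. The median gap between genotypes was 0.14 on the log2 scale and the largest was 0.86, for Atf5.

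The genotypes were then compared directly within each culture. In unstimulated Treg none of 36 members was called (edgeR; 2 at an unadjusted p under 0.05), beside 0.0507% of 11829 genes called higher and 0.0845% called lower in CD18Foxp3 Treg, with 9.59% of all genes at an unadjusted p under 0.05. The log2 fold changes ran from -0.22 to 0.27. Qars had the smallest p, at 56.4, 55.5 and 48.8 TPM in CD18wt and 60.8, 60.0 and 67.6 TPM in CD18Foxp3 Treg. These levels did not overlap, which held for 1 member that was higher (Qars) and 1 that was lower (Eprs, -0.15), beside 8.74% and 6.9% of all genes. For Qars the log2 fold change was 0.20 (SE 0.08, unadjusted p = 0.0243 and adjusted p = 0.408 by edgeR; exact permutation p = 0.1, the smallest that 3 against 3 libraries allow). The other was Wars, at 0.27 (SE 0.12, edgeR adjusted p = 0.478).

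In stimulated Treg none of 37 members was called (edgeR, with 1 at an unadjusted p under 0.05). No gene of 11930 was called in either direction (0% each, with 4.89% of all genes at an unadjusted p under 0.05). The members' log2 fold changes ran from -0.67 to 0.18 with a median of -0.08, and 9 were above 0, beside 49.5% of all genes. Without CD18Foxp3 replicate 1 or CD18wt replicate 3 the median was -0.02. Atf5 had the smallest p: its 3 CD18Foxp3 libraries, at 8.16 to 14.2 TPM, lay below the 3 CD18wt libraries, at 18.6 to 19.5 TPM (log2 fold change -0.67, SE 0.26, unadjusted p = 0.0257 and adjusted p = 0.942 by edgeR). Aars also had groups that did not overlap, with a log2 fold change of -0.27 (edgeR adjusted p = 0.998), which made 2 members lower and 0 higher on this measure, beside 4.41% and 5.02% of all genes. The lowest CD18Foxp3 library was replicate 1 for both genes, and without it the log2 fold change was -0.47 for Atf5 and -0.12 for Aars (edgeR adjusted p = 0.9997 for each).

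The interaction, which asks whether stimulation acted differently in the genotypes, called none of 37 members (edgeR; 1 at an unadjusted p under 0.05) and no gene of 12636 (0%, with 3.84% at an unadjusted p under 0.05). For Atf5 it was -0.86 (SE 0.36, unadjusted p = 0.0281 and adjusted p = 0.988 by edgeR), and it ran from -1.02 to -0.66 when 1 library was left out. The calls of Atf5 and Ddit4 in CD18wt Treg alone were thus not shown to differ between genotypes.

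**Figure D4:**
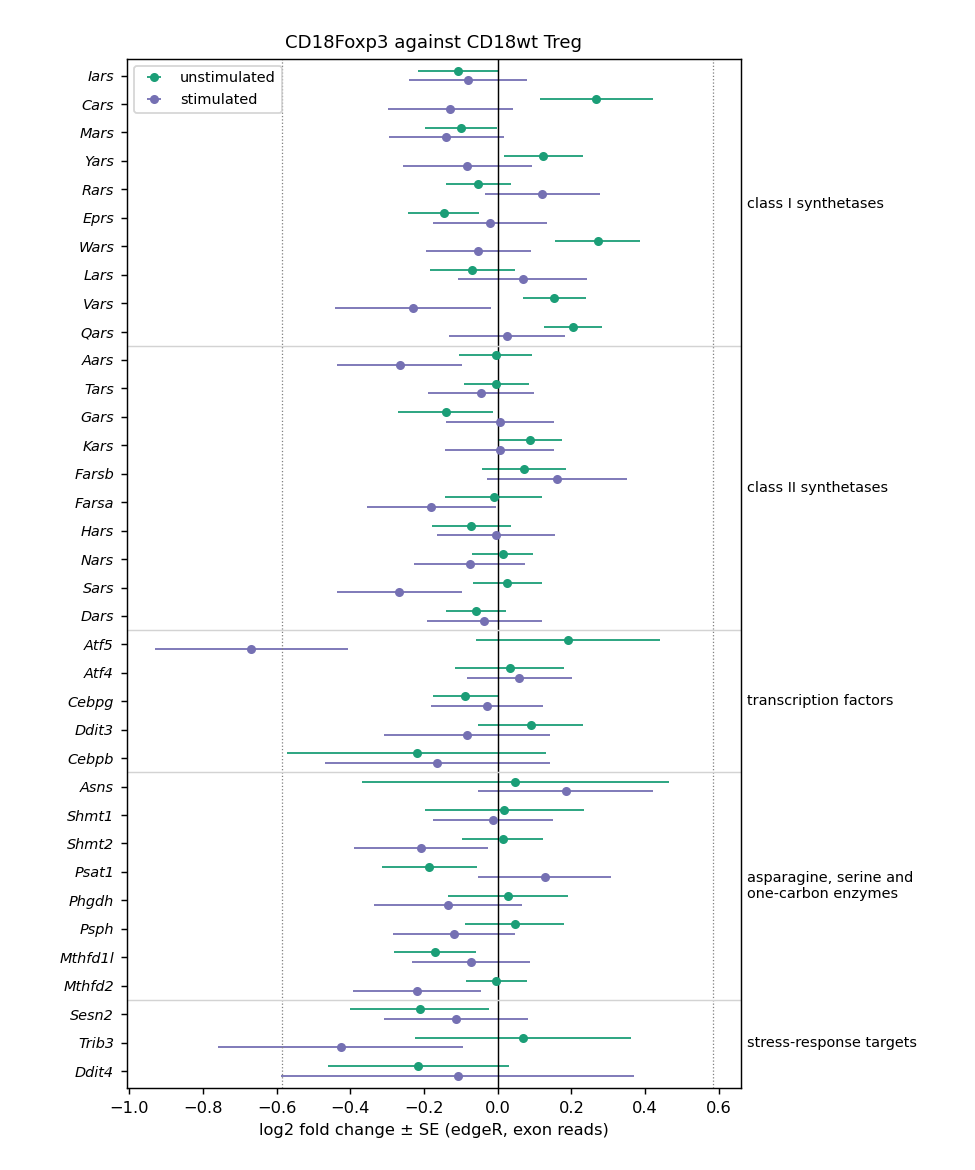
Log2 fold change of exon reads between CD18Foxp3 and CD18wt Treg (points with standard error) for 36 members by role, unstimulated in green and stimulated in purple, with dotted lines at a 1.5-fold change. All unstimulated values lie between -0.22 and 0.27, and Atf5 lies at -0.67 in stimulated Treg.

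Intron reads, which come mostly from RNA that is not yet spliced, were tested as a second readout of the same libraries. In CD18wt Treg 29 members could be tested: 5 were higher (Aars, Kars, Psat1, Shmt2 and Slc7a11) and 1 was lower (Ddit3, -1.75), beside 2.71% and 5.09% of 9492 genes. In CD18Foxp3 Treg 31 members could be tested: 7 were higher (Mars, Wars, Nars, Psat1, Shmt1, Shmt2 and Slc7a11) and 1 was lower (Ddit3, -1.30), beside 15.0% and 15.4% of 10260 genes. The median log2 change of intron reads was 0.83 and 0.53. Leaving out 1 library gave 0 to 5 higher members in CD18wt (0 to 2 for 5 of the 6 libraries) and 6 to 8 in CD18Foxp3 Treg, and CD18wt unstimulated replicate 3 had the lowest intron share.

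Slc7a11, which had too few exon reads for the stimulation fits, had 1, 2 and 0 intron reads without and 33, 30 and 22 with stimulation in CD18wt Treg. CD18Foxp3 Treg had 1, 2 and 4 and then 31, 27 and 24 intron reads. The log2 fold changes were 4.36 (SE 0.93, edgeR adjusted p = 0.00411) and 2.93 (SE 0.70, edgeR adjusted p = 0.000483), while other annotated genes overlap this long locus. The CD18wt call was lost without any 1 library other than unstimulated replicate 3 (log2 fold change 4.17 to 4.97, edgeR adjusted p = 0.0110 to 0.0303). Across members tested on both readouts, exon and intron changes had a Pearson r of 0.62 over 28 members in CD18wt and 0.66 over 30 in CD18Foxp3 Treg, with the same sign in 22 and 26 members. With the sign included, the intron value lay below the exon value in 20 of the 28 and 23 of the 30 members.

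**Figure D5:**
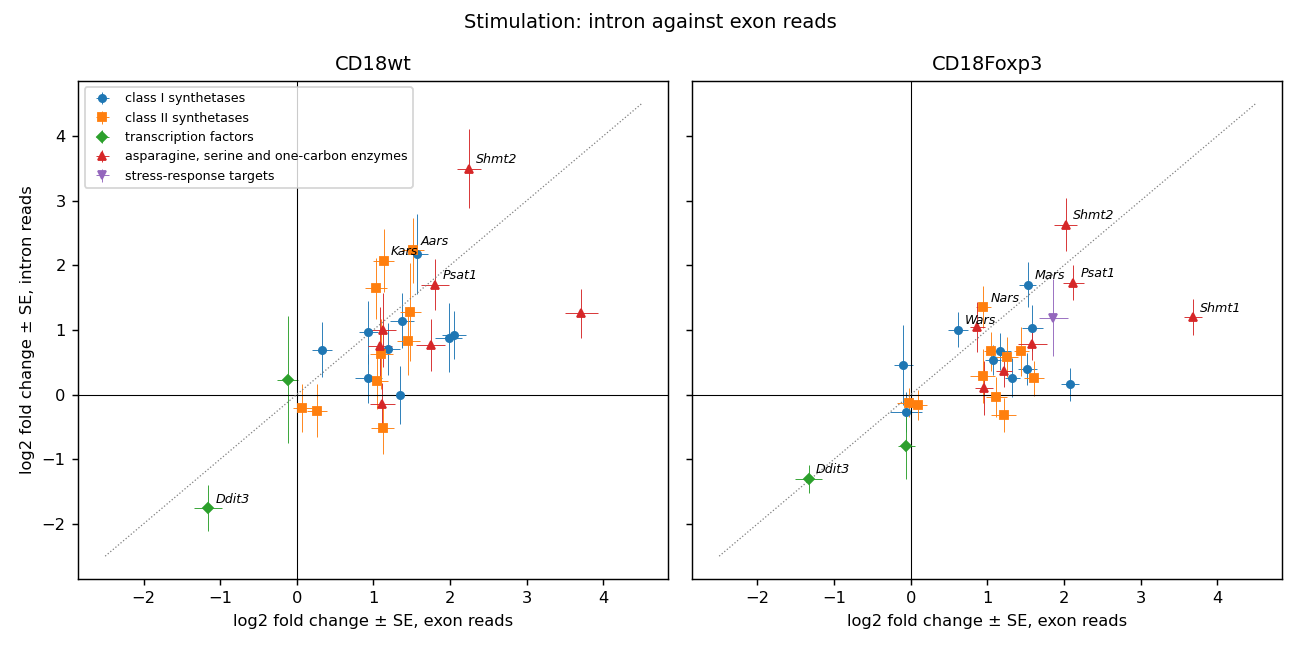
Log2 fold change of intron reads (vertical) against that of exon reads (horizontal), stimulated against unstimulated with standard errors, for the members tested on both, with 1 panel per genotype, a dotted line of equal change and names at members called on intron reads. The sign is the same in 22 of 28 members in CD18wt and 26 of 30 in CD18Foxp3 Treg, with Ddit3 below 0 on both axes.

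Other genes of these pathways were taken from 5 lists. Of 17 mitochondrial synthetases, which are separate genes for nearly every amino acid, 4 rose and 1 fell in CD18wt Treg, and 4 rose and 2 fell in CD18Foxp3 Treg, shares of higher calls near those of all genes (18.7% and 20.9% higher, 14.9% and 17.6% lower). Yars2 rose by 1.43 and 1.41 on the log2 scale in CD18wt and CD18Foxp3 Treg. Aars2 rose by 1.41 in CD18wt Treg and had a value of 1.14 in CD18Foxp3 Treg (edgeR adjusted p = 0.0116). Sars2 rose by 1.13 (edgeR adjusted p = 0.0106, not called, without CD18wt unstimulated replicate 1) and had a value of 0.61 (edgeR adjusted p = 0.101), and Ears2 had -1.09 and -1.02 and fell in both, although limma on log2(TPM + 1) called it in neither (limma adjusted p = 0.0131 and 0.0162). Of the 3 scaffold genes of the multi-synthetase complex, Eef1e1 (1.66 and 1.75) and Aimp2 (1.61 and 1.61) rose in both genotypes and Aimp1 in neither (-0.10 and 0.05).

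Of 14 genes for eIF2alpha kinases, their opposing phosphatase subunits, eIF2 and its exchange factor eIF2B, 6 rose and none fell in CD18wt, and 6 rose and 1 fell in CD18Foxp3 Treg, beside 18.7% and 20.9% of all genes called higher and 14.9% and 17.6% called lower. Eif2b3 of the exchange factor rose by 1.79 and 2.06, Eif2ak4, the GCN2 kinase that senses uncharged tRNA, by 1.22 and 1.42, and Eif2s1, eIF2alpha itself, by 1.36 and 1.40. Ppp1r15a, the inducible phosphatase subunit GADD34, was at 351, 337 and 24.8 TPM in unstimulated and 33.0, 25.7 and 39.9 TPM in stimulated CD18wt Treg. CD18Foxp3 Treg had 353, 331 and 289.5 TPM and then 22.5, 29.6 and 28.5 TPM. It fell in CD18Foxp3 Treg (log2 fold change -3.96, SE 0.15, edgeR adjusted p = 6.02e-07) and was not called in CD18wt Treg (-3.23, SE 1.07, edgeR adjusted p = 0.0684), where CD18wt unstimulated replicate 3 lay with the stimulated libraries. Without that library the CD18wt value was -3.76 with an edgeR adjusted p of 3.29e-08.

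Of 18 further genes known as ATF4 targets, 14 could be tested, of which 11 rose in CD18wt and 10 in CD18Foxp3 Treg, and none fell, beside 18.7% and 20.9% of all genes called higher. Cth, which makes cysteine, had no exon read in the 6 unstimulated libraries and 28, 45 and 33 reads in stimulated CD18wt and 42, 15 and 17 in stimulated CD18Foxp3 Treg, at least 28.5-fold and 19.3-fold higher by the exact 95% lower limit of the ratio (35.7 and 24.3 against a floor of 3 reads over the group). Atf3, a stress-induced transcription factor, had 15, 54 and 0 reads and then 280, 485 and 571 in CD18wt Treg. CD18Foxp3 Treg had 8, 11 and 7 and then 622, 512 and 450 reads, and its log2 fold changes were 4.18 and 5.70. Pycr1, which makes proline, rose by 4.09 and 2.88, and Gpt2, alanine aminotransferase, by 3.22 and 2.31. Both started from few exon reads without stimulation. Pycr1 had 6, 1 and 1 in CD18wt and 4, 4 and 10 in CD18Foxp3 Treg. Gpt2 had 16, 12 and 0 in CD18wt and 7, 22 and 22 in CD18Foxp3 Treg. The CD18wt calls also depended on single libraries: that of Atf3 was lost without any 1 library other than unstimulated replicates 2 and 3 (edgeR adjusted p up to 0.0414), that of Gpt2 without unstimulated replicate 2 or stimulated replicate 2 or 3 (up to 0.0150), and that of Pycr1 without stimulated replicate 3 (log2 fold change 3.32, edgeR adjusted p = 0.0124).

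Of 12 other one-carbon and nucleotide enzymes, 9 could be tested and 6 rose in each genotype, again beside 18.7% and 20.9% of all genes. Gcsh of the glycine cleavage system rose by 2.24 and 2.52, Tyms, thymidylate synthase, by 2.31 and 2.37, and Mthfd1, the cytosolic folate enzyme, by 1.99 and 2.06.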

How the data were processed

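Per the labels and the study's methods, poly(A) RNA was made into libraries with the NEBNext Ultra II RNA kit and 15 PCR cycles and sequenced as 59-base single reads. The authors trimmed the reads, aligned them to GRCm38 in CLC Genomics Workbench and deposited, per gene, counts of exon, intron and gene reads (total and uniquely placed), TPM and RPKM. The deposited TPM were used for levels and were written with decimal commas; RPKM were not used.

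Total exon counts were tested here with edgeR 4.0.16 in R 4.3.3 (filterByExpr with a minimum count of 10, TMM, robust quasi-likelihood F test, Benjamini-Hochberg adjustment over all genes tested), after checks on simulated data. Calls were made at an adjusted p of 0.01 or less with a change of 1.5-fold or more. The standard error was the size of the log2 fold change divided by the square root of F. Comparisons were stimulation in each genotype, genotype in each culture (6 libraries each) and the interaction (12 libraries); intron counts were tested likewise. Single genes were also tested two-sided by exact permutation of their log2(TPM + 1). DESeq2 1.42.0 and limma 3.58.1 served as alternatives. Depth was 10665174 to 19005482 exon reads; intervals cover counting error only.

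Values in every library are given, per role, for the 3 called members with the largest change in each genotype, for the member with the smallest p in each genotype comparison and in the interaction, and for Atf4; in each pathway list at most 4 called genes with an absolute log2 fold change of at least 1 are named, the largest first. Aimp1 and members outside this rule were named after their values were seen. A few items that the rule would name are not reported here. The members and lists were chosen with earlier results of these data known.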

Additional observations from a re-analysis of the deposited data

How the results depend on the processing

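The alternatives were DESeq2, its size factors, library totals, no filter, uniquely placed reads, limma on log2(TPM + 1) and log2(TPM + 0.1), an adjusted p of at most 0.05, all 12 libraries in 1 fit, the replicate block and each library left out; those for named pathway genes, Itgb2 and members called on intron reads were added after seeing the data. Across them 26 to 30 members were higher and 2 to 3 lower in CD18wt Treg, 25 to 27 and 2 to 3 in CD18Foxp3 Treg, and none was called between genotypes or in the interaction. On intron reads, leaving out 1 library gave 0 to 5 higher and 0 to 1 lower members in CD18wt Treg; the cause was not tested.

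With the replicate block 26 members were higher and 3 lower in CD18wt Treg and 26 and 2 in CD18Foxp3 Treg; in CD18wt Treg Atf5 (1.07, edgeR adjusted p = 0.0103) and Gpt2 (3.24, 0.0173) were then not called, in CD18Foxp3 Treg Aars2 (1.05, 0.00785) was called, and no other named call changed. The labels tie no number to a mouse. Deviations of same-numbered libraries from their group means correlated at 0.15, -0.06 and -0.13 in CD18wt and 0.15, 0.06 and 0.23 in CD18Foxp3 Treg. Every library correlated best with its own number in CD18Foxp3 Treg. In CD18wt Treg unstimulated replicate 2 correlated best with stimulated replicate 3 (0.15), and unstimulated replicate 3 with stimulated replicate 2 (0.17). With no mouse given by the labels, the numbers were not taken as a pairing.

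Library totals and TPM shift all genes upward (median by 0.19 and 0.33 in CD18wt and 0.18 and 0.30 in CD18Foxp3 Treg), and the share of called genes that were higher went from 55.7% to 70.4% and 80.7% in CD18wt and from 54.3% to 66.5% and 75.9% in CD18Foxp3 Treg. With library totals, log2(TPM + 1) and log2(TPM + 0.1) in turn, values near 0 changed sign: Cebpg was 0.079, 0.27 and 0.28 in CD18wt, and in CD18Foxp3 Treg Cebpg was 0.12, 0.29 and 0.30, Qars 0.081, 0.26 and 0.26, Vars 0.12, 0.25 and 0.25, and Sars 0.15, 0.32 and 0.32. Leaving out 1 library gave values on both sides of 0 for uncalled genes: -0.00028 to 0.15 for Qars and -0.037 to 0.14 for Dars in CD18wt Treg, and in CD18Foxp3 Treg -0.20 to 0.16 for Vars, -0.029 to 0.16 for Dars and -0.16 to 0.11 for Sars. Atf4 between unstimulated genotypes, 0.03 with all libraries, ran from -0.14 (without CD18wt replicate 3) to 0.14; the cause was not tested.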
